A study of Homo sapiens with 3 samples.

Results

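The loci described here are a U3 small nucleolar RNA locus and a U1 small nuclear RNA locus, each taken as a fixed stretch of hg19 that was chosen with these peaks already known. The U3 window runs from 19085000 to 19100000 on chromosome 17 (band 17p11.2) and is named for SNORD3A. The U1 window runs from 35010000 to 35030000 on chromosome 14 (band 14q13.1) and is named for RNU1-27P and RNU1-28P. Peaks that overlapped a window by at least 1 bp were its members. They made up 4 of the 1138 regions that the peak lists named together, 2 at each locus. Replicate 1 had 1 of them among its 216 peaks and replicate 2 had 4 among its 1118.

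The peaks come from chromatin immunoprecipitation and sequencing (ChIP-seq) in NTera2, a human embryonal carcinoma line used as a model of pluripotent cells. An in-house rabbit antibody, S3242-2, against BEND3 was used in 2 libraries (replicates 1 and 2) and rabbit IgG in 1 library, the control of both lists. All 3 libraries came from the same line, grown in DMEM with serum, with no treatment or genotype named in the labels. The labels do not say whether the BEND3 libraries came from separate cultures, and the read depth behind each list is unknown.

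U3 is a box C/D small nucleolar RNA that guides early cleavage of the ribosomal RNA precursor and is needed to make the small ribosomal subunit. U1 is the small nuclear RNA of the spliceosome that pairs with the 5′ splice site. Both are made by RNA polymerase II from compact promoters of their own kind, and both exist as families of similar copies. BEND3 is a DNA-binding protein with BEN domains that is known from work on repressive chromatin, including silencing of ribosomal RNA genes.

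In a RefSeq table of GRCh38.p14, used for names and gene order alone, all 5 genes named SNORD3 lay on chromosome 17, and SNORD3A (gene 780851) was directly followed by SNORD3C. RNU1-27P (gene 26865) and RNU1-28P (gene 26866) were next to each other on chromosome 14, and the table classes both as pseudogenes. It holds 144 genes named as U1 copies, of which 123 are classed as pseudogenes. The placing of reads that match several copies is not described in the labels, so it is uncertain from which copy the reads of a peak came. An hg19 annotation was not used here. The names therefore follow the windows, no peak could be placed on a gene body or promoter, and the second U3 peak was given no gene of its own.

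At the U3 locus, 1 region was in both lists. Replicate 1 had a peak at 19091358 to 19091557, with a width of 200 bp and a score of 408. Replicate 2 had a peak at 19091306 to 19091628, with a width of 323 bp and a score of 760. The score is a value the authors gave each peak, and here it ranks the peaks of a list. The replicate 1 peak lay wholly inside the replicate 2 peak and covered 61.9% of it. The replicate 2 peak reached 52 bp further on the lower-coordinate side and 71 bp further on the other, so the midpoints were 9.5 bp apart. That was closer than the median of 43.75 bp over the 196 shared regions, of which 160 had midpoints further apart.

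In replicate 1 the shared U3 peak ranked 133 of 216 by score, below the list's median of 444.5, and was 8th of the 12 peaks on chromosome 17. In replicate 2 it ranked 87 of 1118, at 1.9 times the list's median of 400, and was 3rd of 48 on chromosome 17. The longer list holds many more weak peaks, so a place in the whole list is not comparable between lists. Over the 196 shared regions, the same set in both, the U3 peak ranked 130 by its replicate 1 score (median 472.5) and 65 by its replicate 2 score (median 606.5). The score in replicate 2 was 1.86 times that in replicate 1, against a median ratio of 1.28 over the 196 shared regions, and 9 of them had a higher ratio. The ratio of widths was 1.61, against a median of 1.35, and 71 shared regions exceeded it. The replicate 1 peak had the smallest width in its list, 200 bp, which 17 peaks of that list had. Each list comes from a single library, so the replicate error of these ratios could not be estimated.

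A second U3 peak was in replicate 2 alone. It lay at 19093188 to 19093606, with a width of 419 bp and a score of 310, and ranked 913 of 1118. It was wider than the first U3 peak of that list but had a lower score, and 81.6% of the list scored higher. The replicate 1 peak nearest to it was the shared U3 peak, 1.63 kb away.

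At the U1 locus, replicate 2 had a pair of peaks among its 1118 and replicate 1 had 0 among its 216. The first U1 peak lay at 35015973 to 35016343, with a width of 371 bp and a score of 565, and ranked 219 of 1118. The second U1 peak lay at 35025164 to 35025580, with a width of 417 bp and a score of 529, and ranked 272. Both were above the list's median score, and they were 2nd and 4th of the 14 replicate 2 peaks on chromosome 14. Replicate 1 had 2 peaks on that chromosome, and the nearer one lay 67.8 Mb from the U1 pair. With replicate 2 reduced to its 216 strongest peaks, a setting added after seeing the data, it had 0 peaks at the U1 locus. The first U1 peak, at rank 219, fell just outside that cut. At the U3 locus the reduced list had 1 peak, the shared one. The map of the peaks in both windows shows these positions to scale.

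**Figure D1:**
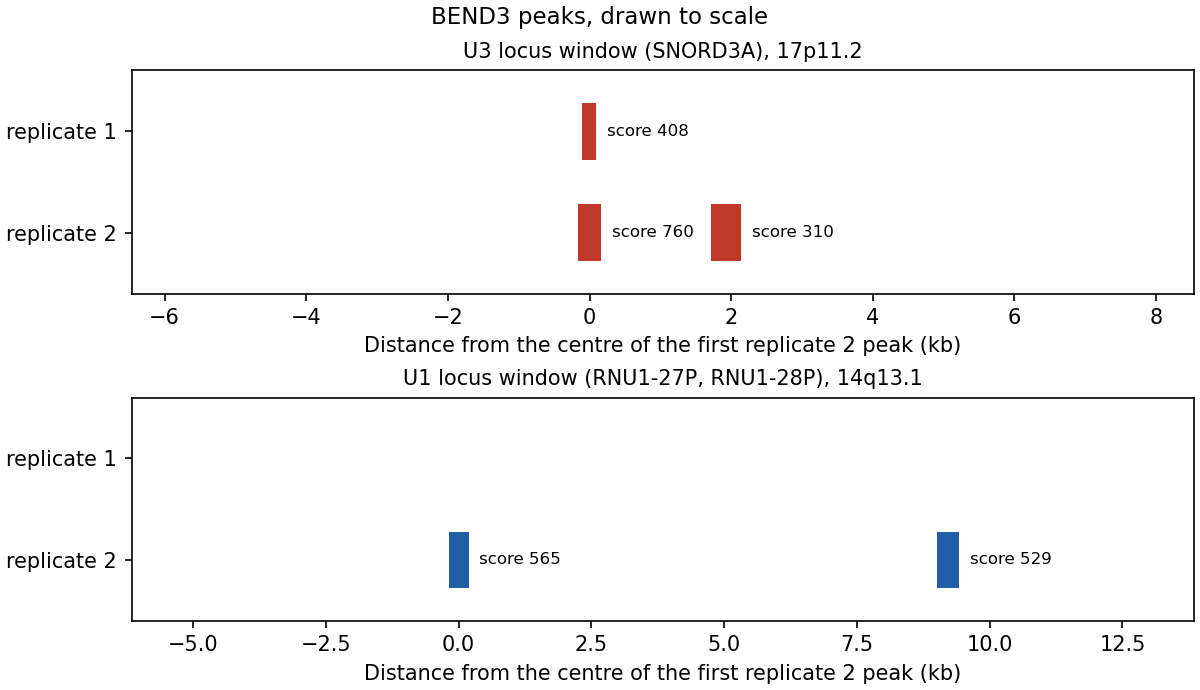
BEND3 peaks in the U3 window (top) and the U1 window (bottom), by list (vertical axis) and distance in kb from the centre of the first replicate 2 peak (horizontal axis), with bars drawn to scale and labelled with the peak score. The first U3 peak is in both lists, whereas the second U3 peak and both U1 peaks are in replicate 2 alone.

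Of the 4 replicate 2 peaks at these loci, 1 overlapped a replicate 1 peak. Over the whole replicate 2 list 17.5% of peaks did, and over the replicate 1 list 90.7% overlapped a replicate 2 peak. The windows were chosen from these lists and both lists share the IgG control, so the count is a description. The share of replicate 2 peaks found in replicate 1 fell with score, from 45.7% of the 280 with the highest scores (95% exact binomial interval 39.8 to 51.7%) to 1.43% of the 280 with the lowest (0.391 to 3.62%). The first U3 peak and both U1 peaks were among the highest 280, which scored at least 523, and the second U3 peak was among the lowest 280. These intervals cover counting error only.

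For each of the 4 peaks, fewer of the peaks of nearly the same score were in replicate 1 than were not. For the first U3 peak the difference was small. Among the 50 replicate 2 peaks ranked nearest to the first U3 peak (25 above and 25 below, scores 705 to 856), 23 were in replicate 1, or 46% (95% exact interval 31.8 to 60.7%). That interval includes 50% and covers counting error only. Around the first U1 peak (scores 549 to 588) the count was 15 of 50, and around the second (512 to 548) it was 10 of 50. Around the second U3 peak (304 to 314) it was 1 of 50. Absence there means that no peak was listed at the depth and threshold of that library.

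**Figure D2:**
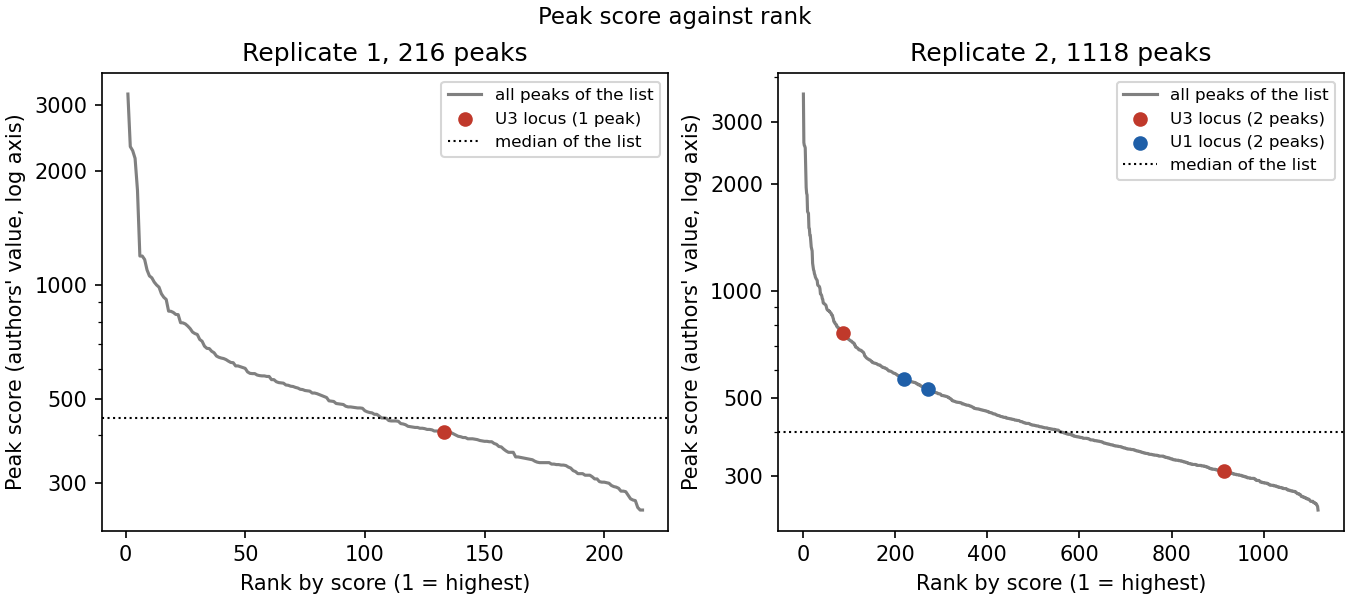
Peak score (authors' value, log axis) against rank within replicate 1 (left, 216 peaks) and replicate 2 (right, 1118 peaks), with the list as a grey line, its median score dotted, and peaks at the U3 and U1 loci as points. The U3 peak of replicate 1 lies below its list's median, and in replicate 2 the first U3 peak and both U1 peaks lie above the median and the second U3 peak below it.

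In replicate 2 the peaks at both loci were near the middle of their list in width. Their widths ran from 323 to 419 bp, where the list had a median of 346.5 bp, quartiles of 256 and 585.75 bp and a maximum of 2711 bp. The U1 peaks and the second U3 peak were wider than that median, and the first U3 peak, the strongest of the 4, was the narrowest. Of the 50 replicate 2 peaks ranked nearest to it by score, 30 were wider. In all, the peaks covered 742 bp of the U3 window and 788 bp of the U1 window in replicate 2, or 4.95% and 3.94% of each.

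**Figure D3:**
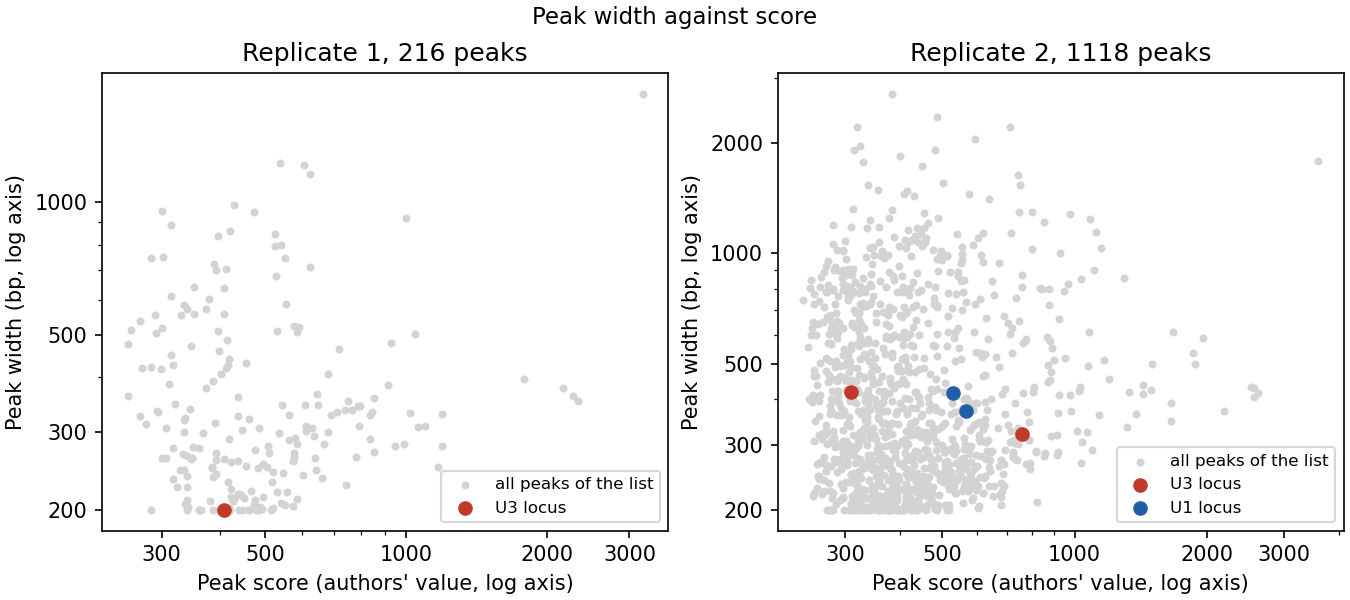
Peak width (bp, log axis) against peak score (authors' value, log axis) in replicate 1 (left) and replicate 2 (right), with all peaks in grey and those at the U3 and U1 loci as coloured points. The member peaks of replicate 2 span widths of 323 to 419 bp, and the replicate 1 U3 peak sits at that list's smallest width of 200 bp.

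Each locus held a close pair of peaks in replicate 2. The U3 peaks started 1.88 kb apart, with 1559 bp between them, and the U1 peaks started 9.19 kb apart, with 8.82 kb between them. The median distance between the starts of neighbouring peaks in that list was 0.859 Mb. Of its 1094 neighbouring pairs, 5 were closer than the U3 pair and 31 were closer than the U1 pair. The windows span 15 kb (U3) and 20 kb (U1) and were chosen with these peaks known. Any pair within a window is therefore close by construction, and these counts are a description. Replicate 1 had no such pair at either locus.

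Within a pair, the U1 peaks were much alike in score and the U3 peaks were not. The scores of the U1 pair differed by 36, a ratio of 1.07, and their widths by 46 bp. The scores of the U3 pair differed by 450, a ratio of 2.45, and their widths by 96 bp. Over the 32 replicate 2 pairs that started within 10 kb of each other, the median ratio of the higher to the lower score was 1.34. The U3 ratio was the 4th highest of the 32, and the U1 ratio was 29th. The higher ratios were 3.30 and 2.74 in band 1q23.3 and 2.91 in band 9q34.3. Of the 32 pairs, 25 lay outside band 1q23.3. The others are consecutive pairs in a single row of peaks there, so they share peaks with each other. They also enter the medians and counts given here, with width ratios from 2.26 to 3.77. In width the pairs were both among the most even, with ratios of 1.30 (U3, 30th of 32) and 1.12 (U1, 31st), against a median of 2.14. Of these 32 pairs, 13 had 1 peak in replicate 1, as the U3 pair did, and 18 had 0, as the U1 pair did. Those with 0 include consecutive pairs in band 1q42.13 that share peaks with each other. The pairs outside band 1q23.3 are therefore not all separate places. Peaks that lie close together share their surroundings, and the members of a pair are not independent.

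**Figure D4:**
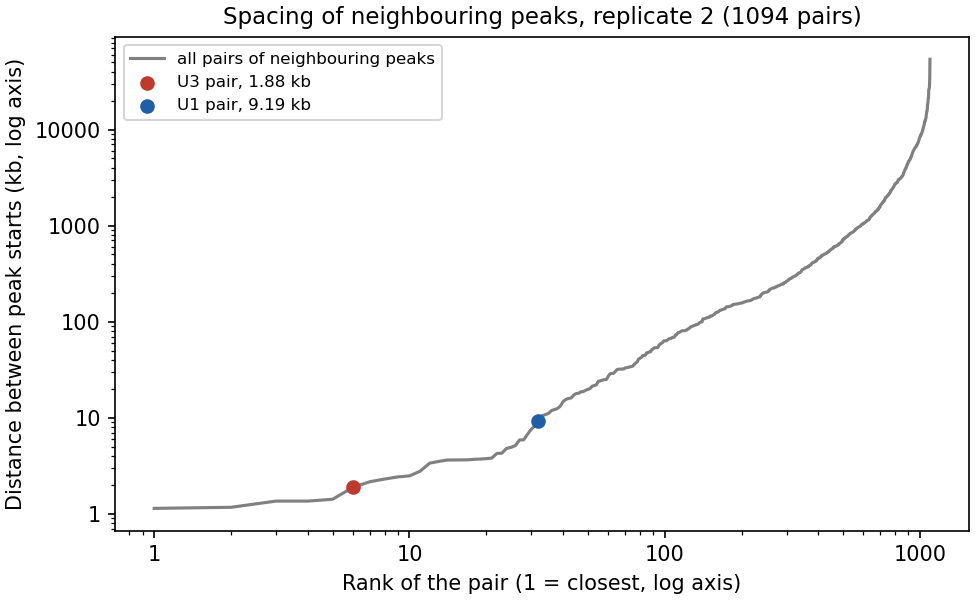
Distance between the starts of neighbouring replicate 2 peaks (kb, log axis) against the rank of the pair (log axis, 1 is the closest), with all 1094 pairs as a grey line. The U3 pair (1.88 kb) ranks 6th and the U1 pair (9.19 kb) ranks 32nd. The windows were chosen with these peaks known and limit how far apart the peaks of a pair could lie.

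Outside the windows, the nearest peak to the U3 locus was also in both lists. It lay at 18967045 to 18967247 in replicate 1 (score 473, rank 97) and at 18966902 to 18967303 in replicate 2 (score 570, rank 215), in the same band, 124 kb before the first U3 peak. In replicate 1 this outer peak scored above the U3 peak, and in replicate 2 it scored below. Its gene was not identified here, and it is not counted as a member. On the other side the next peaks were 2.58 Mb beyond the window in replicate 1 (21679217 to 21679543, score 269) and 7.96 Mb beyond it in replicate 2 (27055574 to 27055777, score 409). With the U3 peaks, band 17p11.2 held 3 peaks in each list.

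The U1 pair stood alone on its stretch of chromosome 14. In replicate 2 the nearest peak before the window was 10.5 Mb away (24520884 to 24521227, score 384) and the nearest after it was 21.6 Mb away (56584793 to 56585052, score 565). Band 14q13.1 held the 2 U1 peaks of replicate 2 and 0 peaks of replicate 1. Chromosome 14 had 0.130 replicate 2 peaks per megabase and chromosome 17 had 0.591.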

How the data were processed

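Per the submitters' processing notes, Novoalign, Picard 2.9.4 and MACS2 were used with hg19 (GRCh37), without roles or parameters. Per the list names, peaks were called for each BEND3 ChIP against IgG; those names also hold the title of the library, which matched list to library. The lists have 9 columns and no header. The authors' deposited score equals the last column times 10, cut to a whole number, in 100% of rows. The kind of the last 3 columns is not named, so they served only as other rankings. Peak start and end positions were deposited in the other columns used and are printed 1-based.

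Every peak in a window and the nearest peaks outside it are named. Members, windows and lists were chosen with earlier results of these data known, so no test was made. Overlap (at least 1 bp), ranks and spacing were computed with Python 3.11.15, numpy 2.4.6, pandas 2.3.3 and scipy 1.17.1, and tested on simulated data. Figures used matplotlib 3.10.9, and bands came from circlize 0.4.16. Names of 37 small RNA genes all matched a RefSeq table of GRCh38.p14. Counting those with a peak within 1 kb needs hg19 positions and was not run. Alternatives covered the window, score, merging, overlap, list length, ranking and either ChIP left out.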

Additional observations from a re-analysis of the deposited data

How the results depend on the processing

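Of 39 alternative values, 29 stayed within 1.5 times the reported count or spacing or, for ranks, within the 95% exact binomial interval of the rank's share of its list. Some of these could hardly move. The score is made from the last column, so ranking by that column gives nearly the same order. A count of 0 stays at 0 when peaks are only removed or merged, and midpoint spacing stays near start spacing for narrow peaks. The number 29 is therefore not a measure of stability. Widening the windows by 10 kb, merging peaks within 1 kb, keeping only peaks wholly inside a window, asking for 50% overlap and extending replicate 1 peaks by 500 bp changed none of the counts they were run on. With replicate 2 reduced to its 216 strongest peaks, 1 region was still shared, but its peaks numbered 1 at the U3 locus and 0 at the U1 locus, counts added after seeing the data; this setting removes peaks by construction. Peaks at or above the median score, a setting that removes peaks by construction, numbered 0 at the U3 locus in replicate 1 and 1 in replicate 2. With either ChIP left out, the U3 locus had 1 to 2 regions and the U1 locus 0 to 2; leaving out replicate 2 gave the lower number at each. Ranked by width, the strongest U3 peak was at 200 in replicate 1 and 610 in replicate 2, and the strongest U1 peak at 521. Ranked by the 8th column, the U3 peak of replicate 2 was at 110; the cause was not tested. No paired analysis was possible because no result comes from a test between groups. What depth limits here is the reading of the U1 peaks and the second U3 peak as missing from replicate 1: the depth of that library is unknown.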
